A study of Mus musculus with 3 samples.

Results

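The genes described here are 10 feedback inhibitors of intracellular signalling, of which 9 were measured among 19087 genes of the array. They were chosen by gene symbol and comprise the dual-specificity phosphatases Dusp1, Dusp2, Dusp4, Dusp5, Dusp6 and Dusp16 and the suppressors of cytokine signalling Socs1, Socs2, Socs3 and Cish. No ratio of Dusp5 was analysed here, and only its promoter was searched for motifs. RNA came from untreated wild-type C57BL/6N mice, 6 to 9 weeks old, and each of 32 mice gave peripheral blood monocytes (PBMo), lung macrophages (lung Mϕ) and lung dendritic cells (lung DC). PBMo were sorted from blood by low side scatter, CD11b and CD115, whereas both lung populations were sorted from collagenase-digested lung as CD11c-positive cells with high (lung Mϕ) or low (lung DC) autofluorescence. The sample labels call the macrophages alveolar, although whole lung was digested. RNA of 4 mice was pooled at a time, and 12 two-colour hybridizations, 4 for each pair of cell types with balanced dyes, were summarised by the authors into 1 log2 ratio per spot and comparison.

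Both gene families switch off signals that switch them on. Dual-specificity phosphatases of this type remove the activating phosphates from the MAP kinases ERK, p38 and JNK, and many of them are transcribed within minutes of MAP kinase activation. SOCS proteins and Cish are induced by STAT transcription factors downstream of cytokine receptors and block the receptor or its Janus kinase. In macrophages and dendritic cells they limit responses to microbial products, interferons, interleukins and GM-CSF, the growth factor on which alveolar macrophages depend.

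The promoters of Cish, Socs3, Socs1, Dusp1 and Dusp2 are shown because these genes carry the main patterns described further on, or, for Dusp1, because its level stayed within 2-fold in all comparisons. Each covers 250 bases before the transcription start and 30 bases from it, 5′ to 3′ on the strand of the gene, from RefSeq on GRCm38.p6. Capitals mark matches to the STAT motif TTCNNNGAA in Cish and Socs3, to the IRF motif (GAAA, 2 bases of any kind, GAAA) in Socs1 and to the cyclic AMP response element TGACGTCA in Dusp1. Dusp2 holds no match to any motif searched. The windows are chr9:107296409-107296688 on the plus strand for Cish, chr11:117969337-117969616 on the minus strand for Socs3, chr16:10785507-10785786 on the minus strand for Socs1, chr17:26508443-26508722 on the minus strand for Dusp1 and chr2:127335909-127336188 on the plus strand for Dusp2.
Cish: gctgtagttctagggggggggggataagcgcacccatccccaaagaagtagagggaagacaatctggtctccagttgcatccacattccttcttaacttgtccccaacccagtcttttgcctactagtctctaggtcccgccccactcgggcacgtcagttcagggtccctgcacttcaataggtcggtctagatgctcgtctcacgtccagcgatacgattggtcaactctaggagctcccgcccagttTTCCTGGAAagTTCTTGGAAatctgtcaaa
Socs3: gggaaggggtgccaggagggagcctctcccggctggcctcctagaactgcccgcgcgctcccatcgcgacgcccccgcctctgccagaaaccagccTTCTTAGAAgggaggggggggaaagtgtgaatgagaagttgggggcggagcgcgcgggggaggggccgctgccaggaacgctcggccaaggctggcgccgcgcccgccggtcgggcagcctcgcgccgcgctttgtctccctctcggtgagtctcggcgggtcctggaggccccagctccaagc
Socs1: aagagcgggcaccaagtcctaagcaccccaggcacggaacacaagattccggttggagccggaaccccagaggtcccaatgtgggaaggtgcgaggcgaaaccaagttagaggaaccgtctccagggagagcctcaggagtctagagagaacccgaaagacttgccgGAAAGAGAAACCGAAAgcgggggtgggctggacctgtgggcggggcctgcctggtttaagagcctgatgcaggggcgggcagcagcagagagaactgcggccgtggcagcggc
Dusp1: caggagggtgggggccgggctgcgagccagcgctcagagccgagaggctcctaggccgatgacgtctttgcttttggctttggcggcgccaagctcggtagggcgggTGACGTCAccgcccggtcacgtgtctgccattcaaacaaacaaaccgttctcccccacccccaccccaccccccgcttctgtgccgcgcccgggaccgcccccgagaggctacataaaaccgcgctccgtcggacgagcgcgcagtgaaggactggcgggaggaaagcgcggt
Dusp2: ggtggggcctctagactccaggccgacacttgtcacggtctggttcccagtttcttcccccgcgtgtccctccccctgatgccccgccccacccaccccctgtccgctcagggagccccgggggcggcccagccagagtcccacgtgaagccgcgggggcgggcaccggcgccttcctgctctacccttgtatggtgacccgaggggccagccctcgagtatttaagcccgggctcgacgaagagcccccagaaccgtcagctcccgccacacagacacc

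The STAT motif occurred in 2 of the 8 members with a promoter in the reference table, against 7.83% of all 32851 promoter windows. In Cish it was present at positions 1 to 9 and 12 to 20, counted from the start as 1, and in Socs3 at positions -154 to -146. Socs1 had IRF motifs at -83 to -74 and -77 to -68, which overlap each other, in a window type where 3.28% of promoters had a match. Socs1 also had 3 matches to the ETS motif CCGGAA, 1 of which overlaps an IRF motif, and this short motif occurred in 14.2% of promoters. Dusp1 had its response element at -143 to -136, against 1.74% of promoters. The CArG box, read as CC, a run of A or T and GG, was matched in 1 of the 8 windows, against 1.56% of promoters. That window was of Dusp5, with matches at -82 to -73 and -72 to -63. The AP-1 motif TGANTCA was found in none of the 8 windows and in 7.46% of all windows, and the NF-κB motif in none of the 8 and 6.51%. All motifs were searched on both strands. A match is a run of letters and not a measured binding site, and a missing match says only that the letters are not in this window.

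The values are log2 ratios and carry no expression level. The comparisons are written lung Mϕ/PBMo, lung DC/PBMo and lung Mϕ/lung DC, and a positive ratio means more transcript in the cell type before the stroke. In each spot the first ratio minus the second equalled the third to within 1.07e-14, so a gene has 2 independent values and the 3 comparisons share their samples. Without replicate values, no p-value and no error over the pools could be given. Higher or lower in a comparison, such as lower in lung Mϕ/PBMo, stands for a log2 ratio above 1 or below -1, which is more than 2-fold. In such bulk RNA, fewer cells of a type and less RNA per cell cannot be told apart.

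The annotation's feature numbers do not give the row of a spot, and the row order was therefore recovered from the ratios. Of 32 interleaved orders, 1 placed a share of 0.907 of the variance of the ratios between, rather than within, transcripts that have several probes, the next 0.413 and the unchanged row order 0.389. Chosen without the probes of the members, the order was the same, with a share of 0.907. The sorted cells carried their own markers, with 12 of 12 alveolar macrophage markers higher in lung Mϕ/PBMo, 9 of 14 dendritic cell markers higher in lung DC/PBMo, and 11 of 11 blood monocyte markers lower in lung Mϕ/PBMo. In lung DC/PBMo only 5 of the 11 blood monocyte markers were lower, with a median of -0.67. Markers of other cells also differed. In lung DC/PBMo, 8 of 12 alveolar macrophage markers and 7 of 13 NK cell markers were higher.

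Of the 9 genes, 5 were past 2-fold in lung Mϕ/PBMo, 2 of them higher and 3 lower in lung Mϕ. Of all genes, 9.96% were past 2-fold here, 5.47% higher and 4.49% lower. In lung DC/PBMo 5 were past 2-fold, all of them higher in lung DC, where the share of all genes was 5.11% in either direction, 4.02% higher and 1.09% lower. In lung Mϕ/lung DC 4 were past 2-fold, all of them lower in lung Mϕ, with 7.26% of all genes past 2-fold, 2.74% higher and 4.52% lower. The median log2 ratio of the members was -0.45, 1.10 and -0.84 in this order of comparisons, while the median over all genes lay between 0.00217 and 0.00269. In all, 8 members were past 2-fold at least once, and 12.9% of all genes were. Dusp1 was the exception. The shares of all genes given here also stand beside the counts of the other gene lists further on.

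**Figure D1:**
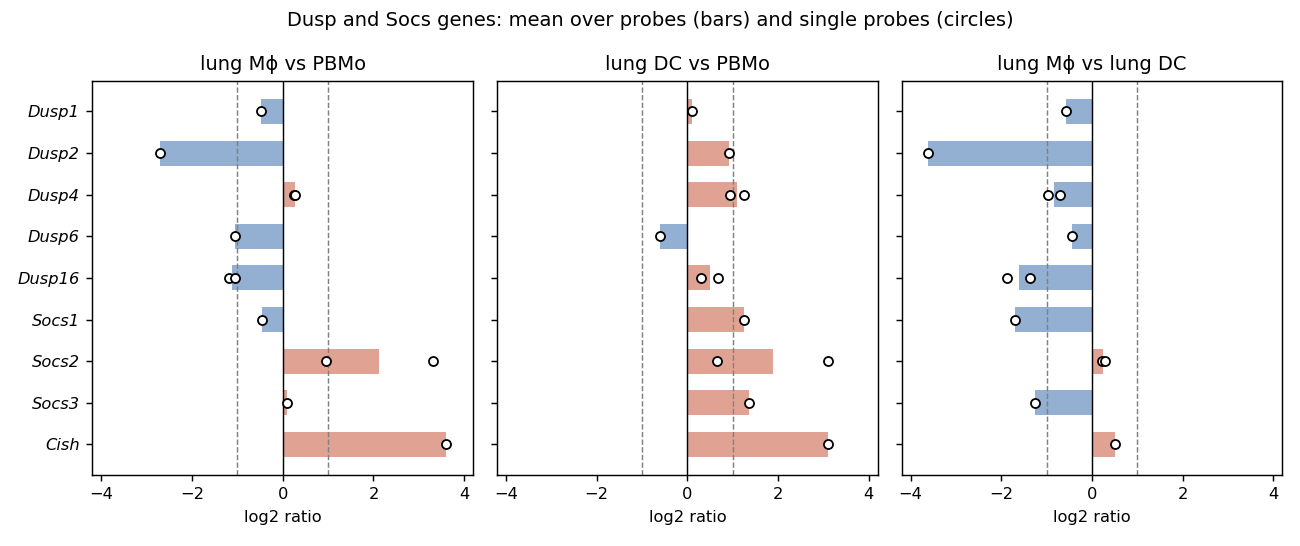
Log2 ratio (horizontal axis) of each measured gene in the 3 comparisons. Bars are the mean over probes, circles the single probes and dashed lines 2-fold. Cish and Socs2 extend to the right in both comparisons with PBMo, Dusp2 extends furthest to the left against lung DC, and the circles of Socs2 lie apart.

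The SOCS genes divided into a pair that was high in both lung populations and a pair that was high in lung DC. Cish and Socs2 formed the first pair. Cish, which binds cytokine receptors that signal through STAT5, reached 3.60 on the log2 scale in lung Mϕ/PBMo, or 12.1-fold, and 3.10 in lung DC/PBMo, or 8.58-fold. It ranked 62 from the top of 19087 genes in the first comparison and 63 in the second. In lung Mϕ/lung DC its ratio was 0.50, within 2-fold. Cish was thus lowest in PBMo, by more than 2-fold against either lung population, and its order between the lung populations was not resolved at this threshold.

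Socs2, an inhibitor of growth hormone signalling that STAT5 also induces, had mean log2 ratios of 2.13 in lung Mϕ/PBMo, 1.88 in lung DC/PBMo and 0.25 in lung Mϕ/lung DC. Its 2 probes differed. The probe of the RefSeq mRNA had 3.32 and 3.11 against PBMo, and the probe of a cDNA clone had 0.94 and 0.66. The second probe alone would leave Socs2 within 2-fold, though on the same side of 0. In lung Mϕ/lung DC the 2 probes had 0.21 and 0.28. They differed by 2.37 in the first comparison and are annotated with different transcripts. Which transcripts the 2 probes detect was not tested.

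Socs1 and Socs3 were high in lung DC. Socs1, which shuts off Janus kinases after interferon, had a log2 ratio of 1.24 in lung DC/PBMo, -0.45 in lung Mϕ/PBMo and -1.69 in lung Mϕ/lung DC. Lung DC thus exceeded lung Mϕ 3.23-fold. Socs3, which inhibits signalling of the IL-6 receptor chain gp130, had 1.36 in lung DC/PBMo and -1.26 in lung Mϕ/lung DC. Its ratio in lung Mϕ/PBMo was 0.10. In both genes lung DC were more than 2-fold above each of the other cell types, and PBMo and lung Mϕ differed by less than 2-fold in both. All 4 genes of the SOCS family listed here were higher in lung DC/PBMo, with ratios from 1.24 to 3.10, while 2 were higher in lung Mϕ/PBMo. Of all genes, 4.02% and 5.47% were higher in these comparisons. Socs2 is counted in both by the mean of its probes, 1 of which was within 2-fold.

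Of 5 phosphatases measured, 3 were lower in lung Mϕ/PBMo and none was higher, with a median of -1.05 and 4.49% of all genes lower. The other two, Dusp1 and Dusp4, were within 2-fold. Dusp2, a nuclear phosphatase of activated leukocytes, had the widest range of all members. Its log2 ratio was -2.70 in lung Mϕ/PBMo, 0.92 in lung DC/PBMo and -3.62 in lung Mϕ/lung DC, so that lung DC exceeded lung Mϕ 12.3-fold. In that last comparison it ranked 25 from the bottom of all genes. Its ratio in lung DC/PBMo was just inside 2-fold.

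Dusp16, a phosphatase that acts on JNK, followed the same order at a smaller size. Its log2 ratios were -1.13 in lung Mϕ/PBMo, 0.49 in lung DC/PBMo and -1.62 in lung Mϕ/lung DC. Its 2 probes, which share an accession, had -1.20 and -1.06 in the first comparison and -1.87 and -1.37 in the last. Both were past 2-fold each time.

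Dusp6, a cytoplasmic phosphatase specific for ERK, was highest in PBMo. Its log2 ratio was -1.05 in lung Mϕ/PBMo, just past 2-fold, -0.60 in lung DC/PBMo and -0.45 in lung Mϕ/lung DC. Dusp4, a nuclear phosphatase for ERK and JNK, was higher in lung DC/PBMo, at 1.10. Its 2 probes had 0.95 and 1.25, so that 1 of them was within 2-fold. Its ratios were 0.26 in lung Mϕ/PBMo and -0.84 in lung Mϕ/lung DC. Dusp1, the phosphatase for p38 and JNK that glucocorticoids and stress induce, had -0.47, 0.11 and -0.59 in lung Mϕ/PBMo, lung DC/PBMo and lung Mϕ/lung DC. Of the 9 genes it had the smallest range over the cell types, 0.59 on the log2 scale.

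**Figure D2:**
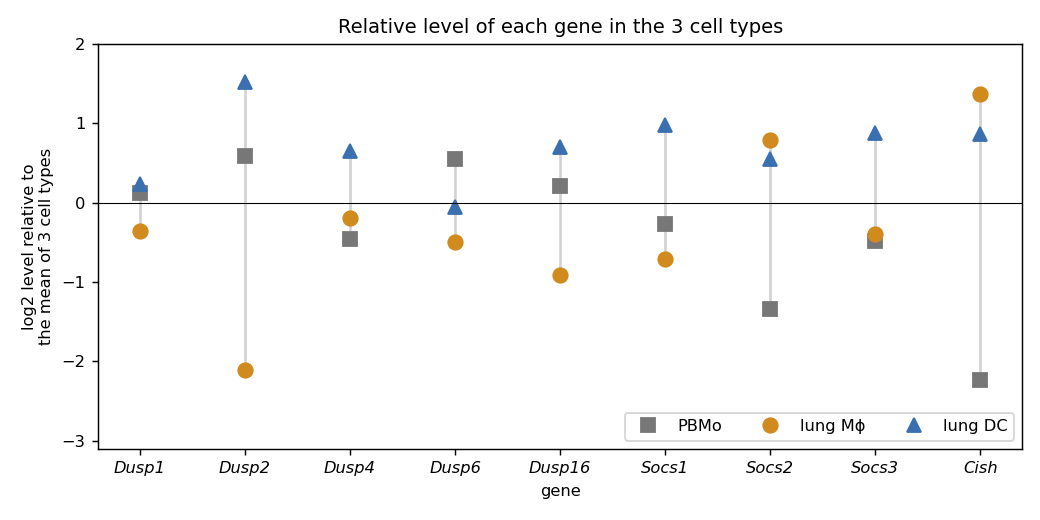
Relative log2 level of each gene in PBMo (squares), lung Mϕ (circles) and lung DC (triangles), with the mean of the 3 cell types set to 0 for each gene. Lung DC are at the top for 6 of 9 genes and at the bottom for none, and Cish and Dusp2 have the longest lines.

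Ordered by cell type, lung DC had the highest relative level in 6 of the 9 genes, lung Mϕ in 2 and PBMo in 1. Of all genes, 30.9% were highest in lung DC, 37.8% in lung Mϕ and 31.3% in PBMo. Lung Mϕ had the lowest level in 5 of the 9 genes and PBMo in 4, against 36.2% and 33.2% of all genes, and lung DC were lowest for none, against 30.6%. Neighbours in this order were mostly within 2-fold. The top 2 cell types differed by more than 2-fold for Socs1 and Socs3, and the bottom 2 for Dusp2, Dusp16, Socs2 and Cish. For Dusp4 and Dusp6 only the highest and the lowest cell type differed by more than 2-fold.

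Related phosphatases and SOCS genes were mostly within 2-fold. Of 18 other dual-specificity phosphatases, 2 were higher and 1 lower in lung Mϕ/PBMo, where 9.96% of all genes were past 2-fold. In lung DC/PBMo 2 of the 18 were higher and 2 lower, where 5.11% of all genes were past 2-fold. Dusp10, which acts on p38 and JNK, had the same signs as Dusp16 and Socs1, with log2 ratios of -0.62 in lung Mϕ/PBMo, 1.52 in lung DC/PBMo and -2.14 in lung Mϕ/lung DC. Dusp22 was low in both lung populations, with -1.19 in lung Mϕ and -1.17 in lung DC, each against PBMo. Of its 2 probes, 1 was within 2-fold in both, at -0.89 and -0.92. The SOCS genes Socs4, Socs5, Socs6 and Socs7 were all within 2-fold in the 3 comparisons, and their ratios lay between -0.86 and 0.17. The exception by probe was Socs6, named after its values were seen, whose RefSeq mRNA probes alone had -1.55 in lung Mϕ/PBMo and -1.32 in lung DC/PBMo. Of 7 Sprouty and Spred genes, which restrain the path from Ras to ERK, Spry1 had 2.14 in lung Mϕ/PBMo and Spry2 had 1.01 in lung DC/PBMo. In lung Mϕ/lung DC the ratios were 1.29 for Spry1 and -1.79 for Spry2. Both calls of Spry2 rest on 1 of its 2 probes, since its RefSeq mRNA probe had 0.06 in lung DC/PBMo and -0.13 in lung Mϕ/lung DC.

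The kinases that the phosphatases act on, or that act above them, were mostly within 2-fold. Of 23 measured genes of the MAP kinase cascade, 4 were lower in lung Mϕ/PBMo, against 4.49% of all genes, and none was higher. None was past 2-fold in lung DC/PBMo, against 5.11% of all genes. Those lower in lung Mϕ were Map3k1 at -1.56, Mapkapk2, a kinase that p38 activates, at -1.15, the p38 kinase Mapk13 at -1.11 and Map2k1, an activator of ERK, at -1.02. Map3k1 and Mapk13 were also lower in lung Mϕ/lung DC, at -1.79 and -1.29.

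Upstream of the SOCS genes, lung Mϕ had lower ratios for several signalling components. Of 10 Janus kinases and STATs, 2 were lower in lung Mϕ/PBMo and 3 in lung Mϕ/lung DC. Stat2, which transmits type I interferon signals, had -2.13 and -1.30 in these comparisons, and Stat4, which transmits IL-12 signals, -1.59 and -3.06. Jak2, a kinase of the GM-CSF receptor, was lower in lung Mϕ/lung DC at -1.27. Its 2 probes had -1.84 and -0.69 there, so that 1 of them was within 2-fold. The median of the list was -0.63 in lung Mϕ/PBMo and 0.04 in lung DC/PBMo. Stat4 was the only gene of this list higher in lung DC/PBMo, at 1.47.

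Of 28 receptor chains that couple to Janus kinases, 3 were higher and 9 lower in lung Mϕ/PBMo, and 2 were higher and 1 lower in lung DC/PBMo. The ratios furthest from 0 in lung Mϕ/PBMo were -2.86 for Il2rb, a chain of the IL-2 and IL-15 receptors, 2.32 for the leptin receptor Lepr, -2.08 for Csf3r, the G-CSF receptor, and 2.03 for the erythropoietin receptor Epor. Of the receptors and STATs known to act above Cish, only GM-CSF and IL-3 receptor chains, Stat5a and Stat5b are named next, after their values had been seen. Il2rb and Epor, both past 2-fold in lung Mϕ/PBMo, are not among them. In lung DC/PBMo, Il2rb had 1.70 and Epor 0.98. Csf2rb2, the beta chain of the mouse IL-3 receptor, had 1.68 in lung Mϕ/PBMo and 0.98 in lung DC/PBMo, Csf2rb had 0.82 and 0.34, and Stat5a had 0.02 and 0.40. Stat5b had -0.65 and -0.33, and the GM-CSF receptor chain Csf2ra had 0.000346 and 0.10. The IL-3 receptor chain Il3ra had -0.66 and -0.22. By the mean over probes, none of these but Csf2rb2 was past 2-fold, while single probes reached 1.16 for Csf2rb and -1.33 for Stat5b in lung Mϕ/PBMo.

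No other inhibitor or target gene of the STAT pathway listed here was past 2-fold in lung DC/PBMo. Of 12 other inhibitors, 2 were lower in lung Mϕ/PBMo, Sh2b3, an adaptor that restrains Jak2, at -1.69 and Ptprc, the CD45 phosphatase, at -1.16, and none was higher. Of 9 other STAT target genes, Bcl6, a transcriptional repressor, was lower in lung Mϕ/PBMo at -2.62. In lung Mϕ/lung DC, Bcl6 was also lower at -2.78, whereas Osm, a cytokine of the IL-6 family, was higher at 1.09. Sh2b3 was lower there at -1.16, and at -0.84 by its RefSeq mRNA probes alone.

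**Figure D3:**
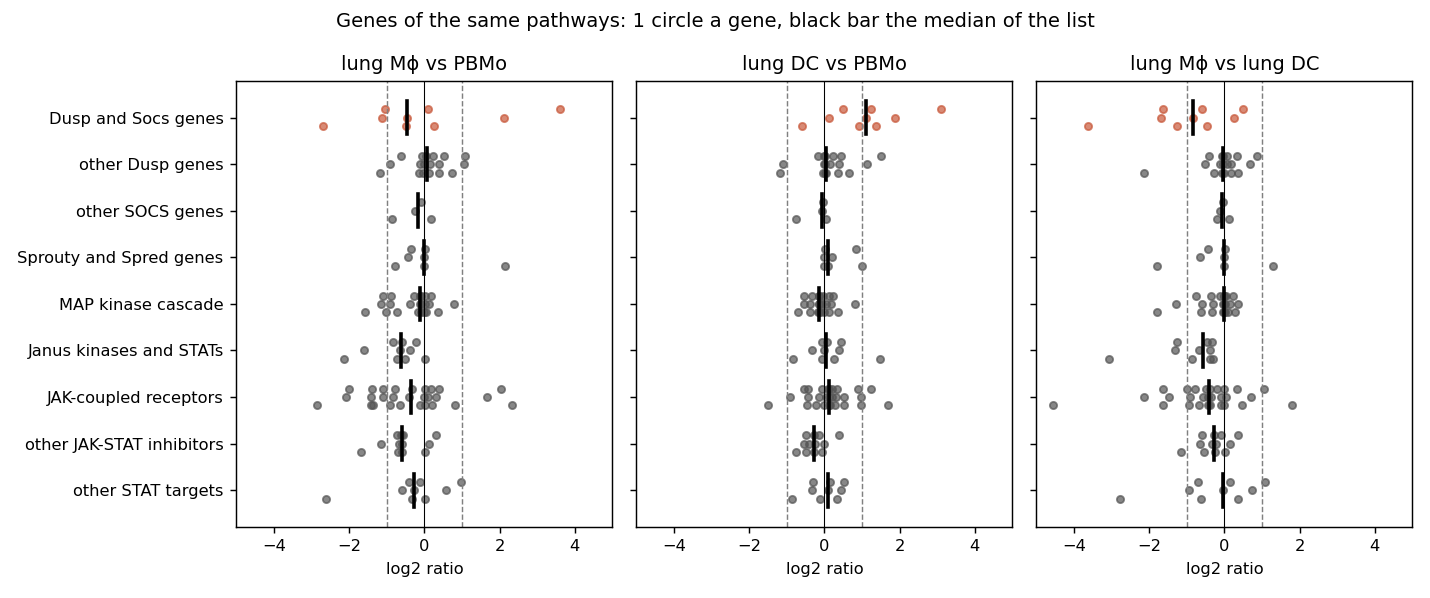
Log2 ratio (horizontal axis) of the genes of each pathway list in the 3 comparisons. Circles are genes, black bars the list medians and dashed lines 2-fold. In lung DC/PBMo the median of the Dusp and Socs genes lies at 1.10, and those of the 8 other lists plotted lie between -0.27 and 0.12. Immediate early genes, with a median of 0.88, and cell type markers are not plotted here.

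Immediate early genes and markers of other cells also differed in these comparisons. Lung cells had been digested with collagenase and PBMo had not, so that preparation and tissue cannot be told apart in both comparisons with PBMo. Of 39 measured genes of the immediate early and dissociation response, 9 were higher and 3 lower in lung Mϕ/PBMo, and 17 were higher and none lower in lung DC/PBMo, with medians of 0.37 and 0.88. In lung Mϕ/lung DC, where both populations had been digested, 1 was higher and 6 were lower, with a median of -0.40, and 4 members were lower there too. Those furthest below 0 were Hspa1a at -2.23, Nr4a2 at -1.81 and Ppp1r15a at -1.57. The 1 higher in lung Mϕ/lung DC was Egr2, a transcription factor induced by growth factors, at 2.06. In lung Mϕ/PBMo and lung DC/PBMo, Egr2 had 6.70 and 4.64, and the heat shock gene Hspa1a had 1.94 and 4.18. Dusp1, itself a gene of such responses, was within 2-fold in both. The part of the preparation in the ratios of the members was not tested.

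NK cell markers had medians near the ratios of Dusp2. Of 13, 11 were lower in lung Mϕ/PBMo, with a median of -2.72, 7 were higher in lung DC/PBMo, with a median of 1.08, and 12 were lower in lung Mϕ/lung DC, with a median of -3.76. The values of Dusp2, -2.70, 0.92 and -3.62, lay close to these medians. Single NK cell markers were spread widely, from -3.95 to -0.55 in lung Mϕ/PBMo and from -5.25 to -0.99 in lung Mϕ/lung DC. T cell markers were higher in lung DC/PBMo for 6 of 11 genes, with a median of 1.37, and lower in lung Mϕ/lung DC for 6 of 11. Mature dendritic cell markers, among which Socs genes are not listed, were higher in lung DC/PBMo for 8 of 10 genes, with a median of 2.20, and lower in lung Mϕ/lung DC for 10 of 10. Beside Cish and Socs2, alveolar macrophage markers had medians of 4.99 in lung Mϕ/PBMo and 2.77 in lung DC/PBMo, and 11 of 12 were higher in lung Mϕ/lung DC. Markers of neutrophils were lower in lung Mϕ/PBMo for 8 of 11 genes and in lung DC/PBMo for 7, and those of platelets for 6 and 5 of 8. B cell markers were lower in lung Mϕ/PBMo for 4 of 9 genes. The sorted cells had been checked by flow cytometry and on cytospins, and the study reports high purity for them. The study describes the lung gates as free of neutrophil, T, B and NK cell surface markers. It describes the monocyte gate as free of T, B and NK cell markers. For GR-1, read there as a neutrophil marker, its text calls PBMo partly positive and a figure legend calls them negative. The part of such cells in the ratios of the members was not tested.

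**Figure D4:**
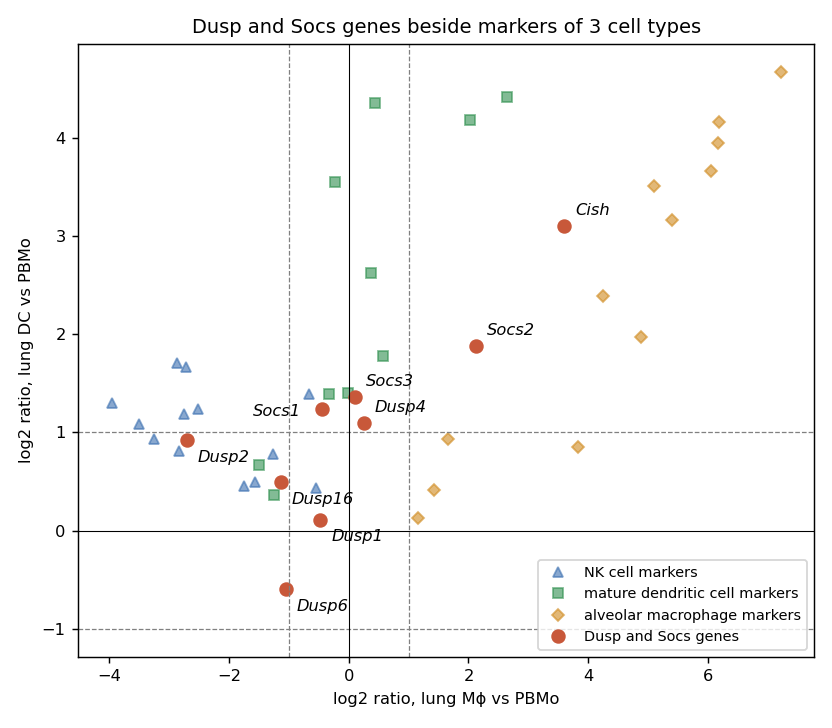
Log2 ratio of lung Mϕ to PBMo (horizontal axis) against that of lung DC to PBMo (vertical axis), for the Dusp and Socs genes (circles) and markers of NK cells (triangles), mature dendritic cells (squares) and alveolar macrophages (diamonds). Both axes share PBMo, and dashed lines mark 2-fold. Dusp2 lies among the NK cell markers, while Cish and Socs2 lie to the upper right.

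By pattern over the 3 comparisons, the genes nearest to each member were listed by Euclidean distance of the log2 ratios, over only 3 cell types. Nearest to Dusp2 were Prf1, the pore protein of cytotoxic granules, at a distance of 0.18, Itpr3, a calcium channel, at 0.36 and the granule protease Gzmb at 0.39, of which Prf1 and Gzmb are on the list of NK cell markers. Il2rb is on that list and on that of the receptors. Only 4 genes lay within 0.5 of Dusp2 and only 3 within 0.5 of Cish, the nearest of which were Trim47 at 0.29 and the GTPase Rhoc at 0.48, followed by Xlr at 0.50. Read from its RefSeq probe alone, Socs2 lay at 0.41 from Cish, which was the gene in place 4 by nearness. By the mean of its probes, Socs2 was nearest to Ccna2 and Cdc20, genes of the cell cycle, and to Rab3il1. Neither probe of Socs2 had that mean pattern alone. Dusp16 was nearest to Il12rb1, a chain of the IL-12 receptor, at 0.05, then to Plekhg2 and Klra3, an NK cell receptor. For Dusp4 and Dusp6 the pattern was common, with 164 and 465 genes within 0.5. Socs1 and Socs3, with 52 and 69 genes within that distance, were nearest to Spaca4 and Rab30.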

How the data were processed

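RNA of the 3 cell types was amplified, labelled with Cy3 or Cy5 and hybridized to Agilent whole-genome mouse arrays by the authors. The deposited log2 ratios are, per the methods of the authors, GenePix spot intensities weighted by spot quality, corrected for local background with a constant offset, LOESS-normalized within arrays, averaged and extracted as contrasts of a limma model over all 12 hybridizations. The version of limma is not given in the sources used here. A constant offset draws the ratios of dim spots towards 0, and spot brightness was not analysed here. The precision is limited by the number of arrays, and sequencing depth does not apply.

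The ratios were used without rescaling, since their medians over 45220 spots lay between -0.00502 and 0.00507. The order of spots was recovered from the agreement of probes of the same transcript, after the values had been seen. Of 33709 listed probes, 33653 had 1 gene symbol and 56 had several and were not used, while 11511 spots were not listed. By gene number, 33517 probes matched current symbols and none changed. A gene is the mean of its probes. Of the 9 measured members, 6 had 1 probe and 3 had 2.

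The members and all gene lists were chosen with earlier results of these data known. No test was made, since 1 contrast per comparison leaves no residual. Genes named are all members, up to 4 genes of each list with the largest ratios past 2-fold in the comparison discussed, and the 3 genes nearest to each member past 2-fold whose probes agree in sign. Csf2ra, Csf2rb, Csf2rb2, Il3ra, Stat5a, Stat5b, Socs6 and the ratios of listed genes within 2-fold were named after their values had been seen. Alternatives were the largest or median probe, RefSeq mRNA probes only, centred columns, thresholds of 1.5-fold and 4-fold and the order chosen without the members. Scripts were tested on simulated data and run with Python 3.11.15, numpy 2.4.6, pandas 2.3.3 and matplotlib 3.10.9.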

Additional observations from a re-analysis of the deposited data

How the results depend on the processing

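The counts of members past 2-fold, 5, 5 and 4 for lung Mϕ/PBMo, lung DC/PBMo and lung Mϕ/lung DC, stayed within 1.5 times with the largest or the median probe, RefSeq mRNA probes only, centred columns, the order chosen without the members and a threshold of 1.5-fold, at which they were 5, 7 and 6, with 18.9%, 11.7% and 15.6% of all genes past it. At 4-fold they were 3, 1 and 1, with 3.06%, 1.25% and 1.67% of all genes past it. With RefSeq mRNA probes only, Dusp4 had 0.95 in lung DC/PBMo, which left 4 members past 2-fold there. With every probe of a gene required past 2-fold, a setting added after the data were seen, 3 members were past it in lung DC/PBMo, without Dusp4 and Socs2. Leaving out Socs2, whose probes differ, also added afterwards, gave 4, 4 and 4. No called ratio of a member changed sign under the probe, centring or order settings. Of 24 counts over the pathway lists, 8 moved by over 1.5 times with the largest probe, 5 with RefSeq mRNA probes only, 20 at 1.5-fold and 15 at 4-fold. Of 27 counts over cell type markers, 1, 0, 4 and 16 did, and of 3 over immediate early genes, 0, 0, 2 and 3. None moved with the median probe, centring or order settings. Replicates could not be left out in turn, because the values hold none, and signal over background was not analysed here.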
